A study of Mus musculus with 6 samples.

Results

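Cytoplasmic ribosomal proteins are the protein components of the ribosome, and their genes were followed here through 6 RNA sequencing libraries of mouse heart apex taken after myocardial ischaemia and reperfusion. Members were chosen by symbol, as Rpl or Rps followed by a number (with an optional a, l or x), Rplp0 to Rplp2, and Rpsa; pseudogenes and S6 kinases were left out. The rule found 81 genes of 37620 in the deposited table, 49 of the large (60S) subunit and 32 of the small (40S) subunit. All 6 libraries came from wild-type C57/BL6J mice that underwent 30 min of ischaemia and 120 min of reperfusion, and drugs were infused slowly through the tail vein. In the vehicle group (3 libraries) the mice had been given the vehicle of yohimbine, an alpha-2 adrenergic antagonist, and separately the vehicle of dexmedetomidine, both before surgery. In the dexmedetomidine group (3 libraries) the vehicle of yohimbine was followed after 30 min by dexmedetomidine, an alpha-2 agonist used as a sedative, at 10 µg/kg, and surgery began 20 min later. The labels give the interval between injections for the dexmedetomidine group only, do not state age or sex, and do not say that the 3 samples of a group came from separate animals, so a p-value here speaks only to spread among samples that may be technical. The comparison asks whether ribosomal protein transcripts stood at other levels in the reperfused apex when dexmedetomidine had been given first, and whether the subunits differed in this.

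The ribosome joins a small subunit, which reads the messenger RNA, to a large subunit, which makes the peptide bond and holds the exit tunnel for the new protein. Each subunit is built in the nucleolus from ribosomal RNA and ribosomal proteins, most of them at 1 copy per ribosome, so their supply is kept in proportion. Messenger RNAs of ribosomal proteins begin with a run of pyrimidines (C or T) directly at their start, the terminal oligopyrimidine or TOP motif, through which the kinase mTOR and the protein LARP1 control their translation and stability. Heart muscle makes proteins continuously to replace its contractile apparatus, and ribosome content is known to rise with cardiac growth.

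Libraries held between 42.7 and 56.6 M gene counts. Alignments at more than 1 place, which the table sets apart from gene counts, were 28.05% to 31.4% of all reads in the vehicle libraries, 31.2% in dexmedetomidine replicate 1 and 39.5% and 39.4% in dexmedetomidine replicates 2 and 3. Mitochondrially encoded genes took 22.01% to 25.2% of gene counts after vehicle, 27.1% in dexmedetomidine replicate 1, and 36.9% and 38.2% in dexmedetomidine replicates 2 and 3. The leading principal component over all tested genes held 47.3% of the variance, and on it vehicle replicates 1 to 3 scored -26.3, -69.8 and 3.67 and dexmedetomidine replicates 1 to 3 scored 17.6, 28.1 and 46.6. Vehicle replicate 2 thus stood far from the others, and vehicle replicate 3 lay next to the dexmedetomidine libraries. The counts for the whole set are given with and without them.

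Pyrimidine runs near the annotated start were more frequent among members than among RefSeq genes at large, though many members lacked one. RefSeq promoter windows (GRCm38.p6) were matched for 59 members. A run of at least 8 pyrimidines that overlapped the 10 bases on either side of the annotated start was found in 28 of them (47.5%). It was found in 15.8% of all 27025 RefSeq genes with such a window. Those genes include the members and were not limited to genes of the deposited table or to expressed genes. The share was 47.2% for 60S members and 47.8% for 40S members. The sequence CCGGAAG is the core of sites for ETS-family factors such as GABP. It lay on either strand of the window of 300 bases in 42.4% of members and in 9.93% of the same 27025 genes. The sequences shown were picked by hand, mostly from members with the run. The 4 members shown first had lower values after dexmedetomidine, and the next 3 had values slightly above those of vehicle. Rpl3l, a form of Rpl3 specific to striated muscle, is shown as 1 example of the many members without the run. Rpl41 and Rps15, with the lowest log2 fold change of each subunit, are not shown and had longest runs of 3 bases. Each sequence covers 45 bases before and 15 bases after the annotated start, 5′ to 3′ on the gene's strand, and capitals mark the pyrimidine run where it has at least 8 bases.
Rpl38, chr11:114668535-114668594, plus strand: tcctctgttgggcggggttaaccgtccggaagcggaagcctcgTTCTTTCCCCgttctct
Rplp2, chr7:141447606-141447665, plus strand: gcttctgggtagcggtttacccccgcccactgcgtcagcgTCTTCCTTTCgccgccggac
Rps9, chr7:3703996-3704055, plus strand: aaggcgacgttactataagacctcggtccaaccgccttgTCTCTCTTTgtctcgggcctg
Rpl28, chr7:4792920-4792979, plus strand: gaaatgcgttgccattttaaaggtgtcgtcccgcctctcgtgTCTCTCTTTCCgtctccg
Rps27, chr3:90213634-90213693, minus strand: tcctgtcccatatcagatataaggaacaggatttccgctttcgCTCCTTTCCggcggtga
Rps6, chr4:86857353-86857412, minus strand: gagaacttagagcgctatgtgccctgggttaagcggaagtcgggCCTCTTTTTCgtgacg
Rpl35a, chr16:33056437-33056496, plus strand: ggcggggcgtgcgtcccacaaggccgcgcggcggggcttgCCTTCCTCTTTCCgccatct
Rpl3l, chr17:24727781-24727840, plus strand: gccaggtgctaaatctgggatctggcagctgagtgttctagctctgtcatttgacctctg
Runs of 9 to 13 bases were thus present both in members with lower values and in members without. Among tested members with a window, the median log2 fold change was -0.15 for the 28 with the run and -0.22 for the 29 without it, and -0.14 for the 24 with CCGGAAG and -0.23 for the 33 without. These matches describe letters in a window and are not evidence of a site in use.

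Ribosomal protein genes were among the well-measured genes of the table. Of the 81 members, 79 passed the filter on low counts and were tested, 47 of the 60S and all 32 of the 40S, and 76 had at least 1000 counts in every library. Rpl10l, a testis-type copy of Rpl10, had 0 counts in each library, and Rpl39l, a testis-type copy of Rpl39, had 1, 1 and 0 counts in vehicle replicates 1 to 3 and 0, 6 and 6 in dexmedetomidine replicates 1 to 3. Levels per length (RPKM, from CPM and the deposited gene length) had a median of 125 over tested members and ran from 1.13 for Rpl6l to 754 for Rplp1, a protein of the ribosomal stalk. Below Rplp1 came Rps27 (599), Rps12 (448) and Rplp0 (416), and at the low end stood Rps4l (21.8), Rpl35a (22.0) and Rps28 (24.2). The deposited lengths reached 6262 bases for Rps15a, whereas its principal transcript in GENCODE M21 has 640 bases, so the low places in this order partly follow the length used. With principal transcript lengths the median was 260 RPKM, and the 2 orders had a Spearman rho of 0.60 over 77 genes that share libraries and counts. Many members have copies elsewhere in the genome. For 49 of the 77 with a principal transcript, over 50% of the 50-base windows of that transcript also occurred in another gene's transcripts, so single values are uncertain where reads could not be placed. The 194 rows named as ribosomal protein pseudogenes held counts equal to 0.515% to 0.698% of the members' counts.

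After dexmedetomidine most ribosomal protein transcripts had lower values than after vehicle, though no member passed the test over all genes. Log2 fold changes (dexmedetomidine minus vehicle) were below 0 for 65 of 79 tested members, against 49.7% of all genes tested, and their median was -0.22, that is 1.17-fold lower, against 0.0032 for all genes. The middle 50% of members lay between -0.42 and -0.04, and the full range was -0.71 to 0.28. In edgeR's quasi-likelihood test 0 of 79 members and 0% of 14738 genes had an adjusted p under 0.05, and the members' adjusted p ran from 0.109 to 0.985. At an unadjusted p under 0.05 there were 28 members lower (background 9.03%) and 0 higher (background 12.5%). Values of the groups did not overlap, with each dexmedetomidine library below each vehicle library, for 23 members (background 12%), and none had the opposite order (background 15.6%). DESeq2 called 13 members lower (background 1.77%) and 0 higher (4%), and limma-voom with quality weights 27 lower (5.2%) and 0 higher (8.79%). The DESeq2 background is over 21606 genes with any count, a wider set with many low-count genes, so the 2 backgrounds are not alike. In whole tissue, fewer cells of a type and less RNA per cell cannot be told apart.

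The libraries did not split cleanly by group. As the mean deviation from each gene's own mean in log2 CPM, members stood at 0.14, 0.28 and -0.073 in vehicle replicates 1 to 3 and at -0.029, -0.10 and -0.21 in dexmedetomidine replicates 1 to 3. Vehicle replicate 3 lay below dexmedetomidine replicate 1, so at the level of the whole set the groups overlapped. Vehicle replicate 2 held the highest value of 57 of 79 members, and dexmedetomidine replicate 3 held the lowest of 41, with vehicle replicate 3 lowest for another 29. Without vehicle replicate 2 the median log2 fold change was -0.13 and 58 of 79 members were lower (background 49.5%). Groups then did not overlap for 23 members lower (background 14.9%) and 2 higher (18.4%). Without vehicle replicate 3 the median was -0.31 and 73 of 79 were lower (48.7%). Then 56 did not overlap with lower values (22.4%), and edgeR called 8 members lower (2.19%). Without dexmedetomidine replicate 2 the median was -0.23 (all genes 0.0024), and without replicate 3 it was -0.20 (0.0033). Members lower at an edgeR unadjusted p under 0.05 were then 14 and 13. Those fits have 1 library fewer, and their share over all genes is not given here.

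**Figure D1:**
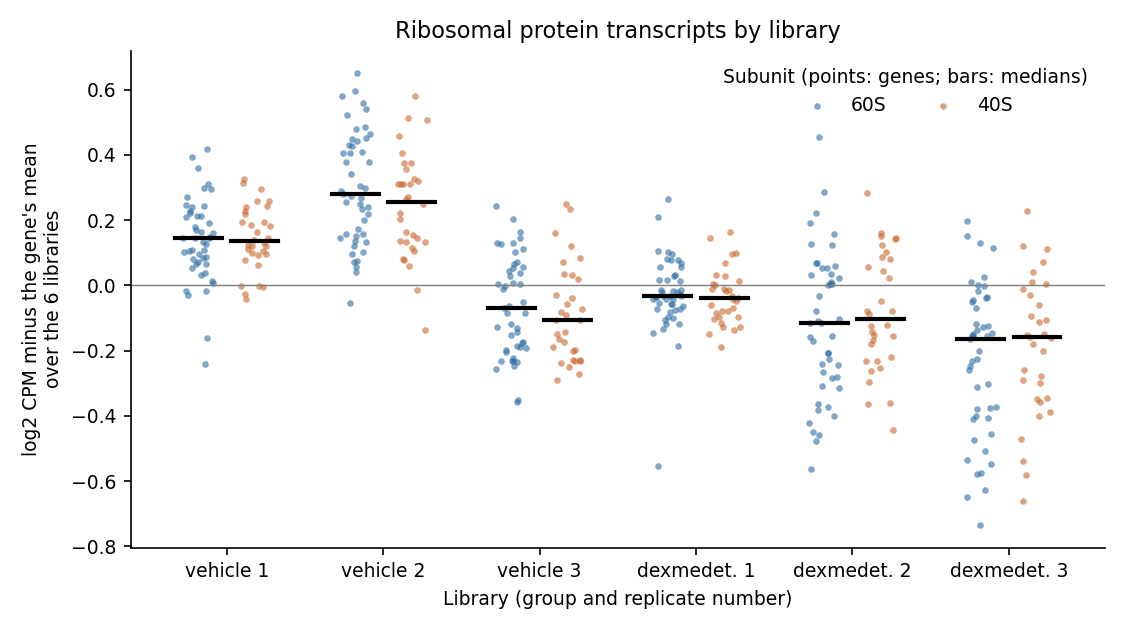
Log2 CPM of each of 79 tested ribosomal protein genes minus that gene's mean over the 6 libraries (vertical axis), by library (horizontal axis), with 60S genes in blue, 40S genes in orange and black bars at the medians. Vehicle replicate 2 has the highest medians (0.28 for 60S, 0.26 for 40S), dexmedetomidine replicate 3 the lowest (-0.16 each), and vehicle replicate 3 lies below dexmedetomidine replicate 1.

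The members' share of all gene counts was 1.82%, 1.88% and 1.67% in vehicle replicates 1 to 3 and 1.63%, 1.37% and 1.26% in dexmedetomidine replicates 1 to 3. Each dexmedetomidine library lay below each vehicle library, with means of 1.79% ± 0.107 and 1.42% ± 0.189 (SD, n = 3 each). The total holds the mitochondrially encoded genes, whose share was higher in the same libraries. With those genes left out of the total, shares were 2.43%, 2.41% and 2.18% after vehicle and 2.23%, 2.17% and 2.04% after dexmedetomidine, and the groups overlapped (2.34% ± 0.139 and 2.15% ± 0.0998, SD, n = 3).

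The subunits did not separate. For the 60S, 39 of 47 members were lower with a median log2 fold change of -0.22, and for the 40S, 26 of 32 were lower with a median of -0.21. The difference of the medians was -0.011, and it ran from -0.059 to 0.028 when 1 library was left out. Unadjusted p under 0.05 with lower values was seen for 19 of 47 60S and 9 of 32 40S members (background 9.03%). Separated groups with lower values were seen for 16 and 7 (background 12%). Per library, the mean deviation of the 60S minus that of the 40S was -0.0068, 0.055 and 0.023 after vehicle and 0.0080, -0.037 and -0.043 after dexmedetomidine, with overlap between the groups. The 60S members made up 58.0%, 59.0% and 58.8% of the members' counts after vehicle and 58.2%, 57.0% and 57.1% after dexmedetomidine, also with overlap. Across the 6 libraries the median Pearson correlation between pairs of genes in log2 CPM was 0.68 within the 60S, 0.58 within the 40S and 0.66 between the subunits, a description over 6 points that share depth and composition.

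**Figure D2:**
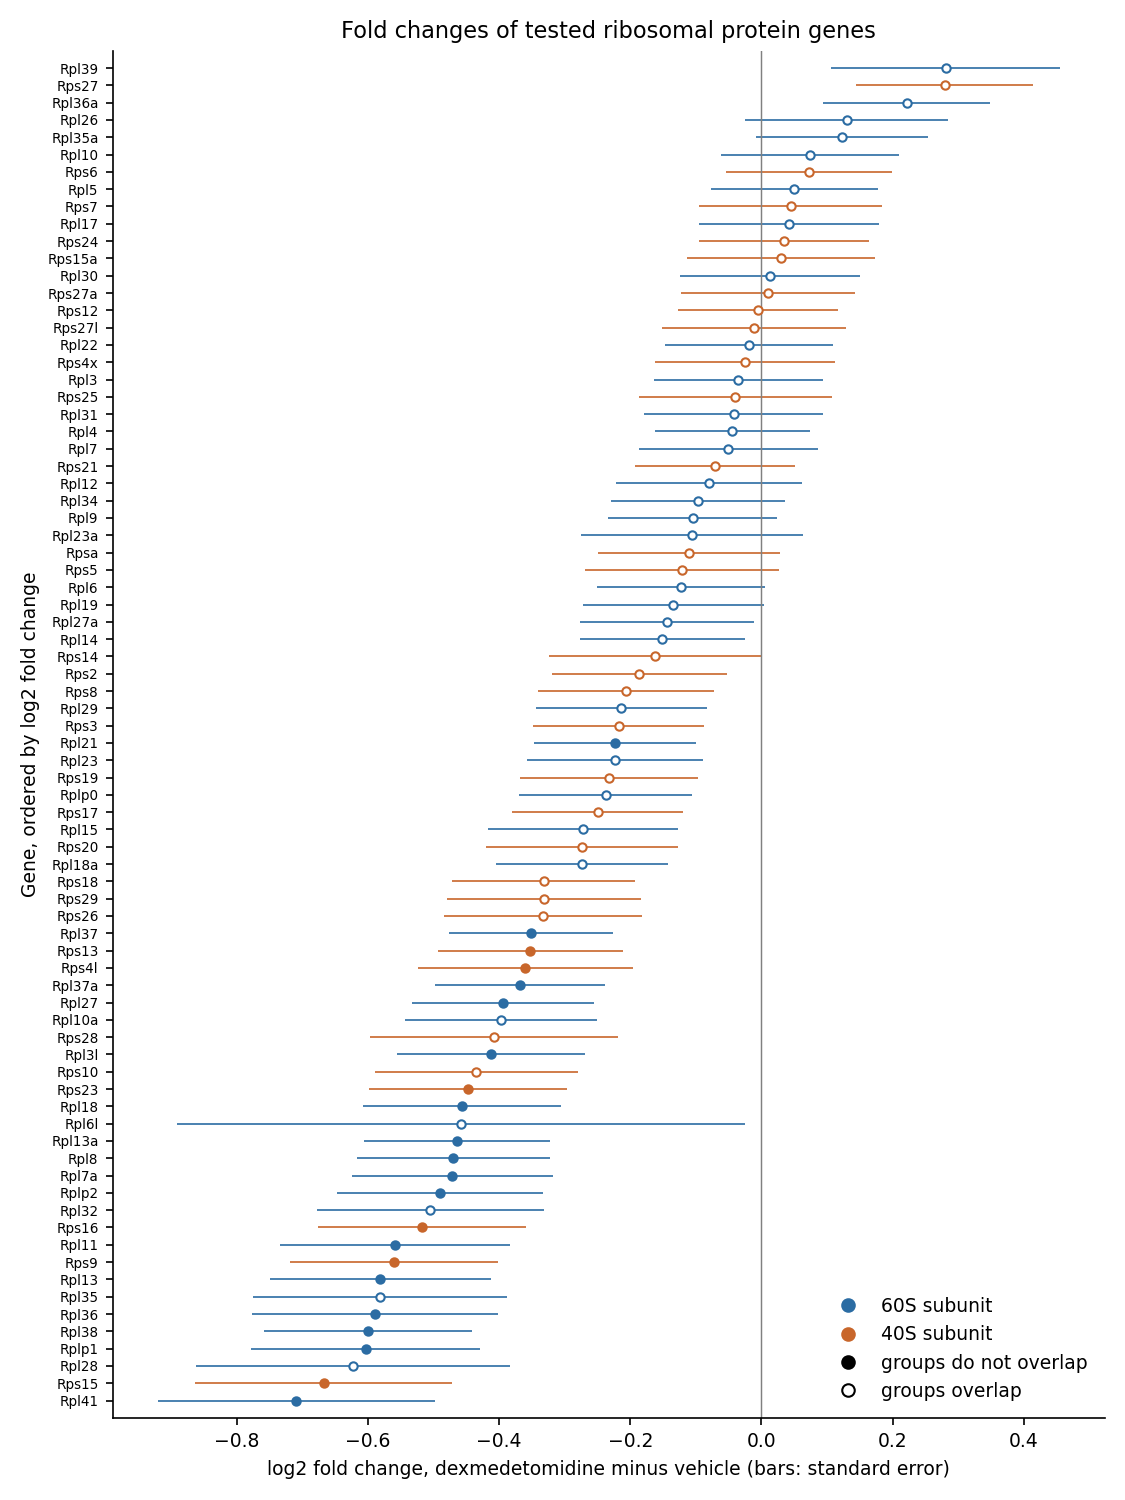
Log2 fold change (dexmedetomidine minus vehicle, horizontal axis, bars: standard error) of tested ribosomal protein genes (vertical axis, ordered by value; 1 tested gene is not drawn), with filled points where the 3 values of one group lie wholly below those of the other. Values run from -0.71 for Rpl41 to 0.28 for Rpl39, filled points are all on the lower side, and 60S (blue) and 40S (orange) genes are mixed along the order.

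Within the 60S, the P stalk, a flexible arm that recruits and activates elongation factors, had lower values for all 4 proteins on the list (median log2 fold change -0.36). Rplp1 measured 483, 505 and 363 CPM in vehicle replicates 1 to 3 and 356, 290.4 and 243 CPM in dexmedetomidine replicates 1 to 3. Each dexmedetomidine library was below each vehicle library, and the log2 fold change was -0.60, SE 0.18, edgeR adjusted p = 0.114. Its partner Rplp2 stood at 176, 228 and 165 CPM and 155, 128 and 122 CPM in the same order, also without overlap (-0.49, SE 0.16). Rplp0, which anchors the stalk to the ribosome, had 769.8, 843 and 627 CPM and 639, 637 and 623 CPM, where dexmedetomidine replicates 1 and 2 lay above vehicle replicate 3 (-0.24, SE 0.13). Rpl12 at the stalk base was at -0.080 (SE 0.14). Rplp1 and Rplp2 were thus lower by more than Rplp0 and Rpl12, a difference that was not tested. With the correction for GC content and length described below, the stalk median was -0.070 and 2 of 4 were below 0. Rplp1 was then at -0.14, Rplp2 at -0.21, Rplp0 at 0.0012 and Rpl12 at 0.037. With the correction from principal transcripts the stalk median was -0.062 and 3 of 4 were below 0.

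The lowest log2 fold change of all members belonged to Rpl41, a very short basic peptide at the interface of the subunits. It measured 204, 232 and 169.5 CPM after vehicle and 166, 105 and 98.9 CPM after dexmedetomidine, with a log2 fold change of -0.71, SE 0.21, edgeR adjusted p = 0.119. Dexmedetomidine replicate 1 lay just below the lowest vehicle library, and replicates 2 and 3 lay far below it. Rpl38, a surface protein known from its role in the translation of Hox messenger RNAs in the mouse embryo, had 61.2, 66.9 and 57.3 CPM and 50.3, 38.7 and 33.3 CPM, the smallest adjusted p of the members (log2 fold change -0.60, SE 0.16, edgeR adjusted p = 0.109). Rpl13 was at 363, 457 and 343 CPM after vehicle and 317, 234 and 226 CPM after dexmedetomidine (log2 fold change -0.58, SE 0.17, edgeR adjusted p = 0.114), and Rpl13a, also known for silencing of interferon-induced messages when released from the ribosome, was at -0.46 (SE 0.14). Both were without overlap. Rpl28 had 1 of the largest differences (-0.62, SE 0.24) but overlapped: dexmedetomidine replicate 1 held 169 CPM, above the 164 of vehicle replicate 3, while replicates 2 and 3 held 105 and 87.7. Rpl28 was singled out after its values were seen.

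The genes of the 5S ribonucleoprotein had unlike values, a difference that was not tested. Rpl5 and Rpl11 bind 5S ribosomal RNA together, and when free they bind the p53 regulator MDM2. Rpl11 had 177, 192 and 156 CPM after vehicle and 153, 104 and 100.3 CPM after dexmedetomidine, without overlap (log2 fold change -0.56, SE 0.17, edgeR adjusted p = 0.126). Rpl5 had 264, 266 and 217 CPM and 243, 276 and 255 CPM, and its groups overlapped throughout (log2 fold change 0.050, SE 0.13, edgeR adjusted p = 0.86). With the correction for GC content and length described below, both were below 0, Rpl11 at -0.39 and Rpl5 at -0.32. With the correction from principal transcripts they were at -0.31 and -0.39.

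Around the peptidyl transferase centre, where the peptide bond forms, Rpl8 was without overlap at -0.47 (SE 0.15), while Rpl3, Rpl4 and Rpl10 were at -0.036, -0.045 and 0.074. With the trend over GC content and length removed from each library, all 4 were above 0, with Rpl8 at 0.0082. With that trend taken from principal transcripts Rpl8 was at -0.035. Rpl10, which joins late in maturation, measured 311, 345 and 268 CPM after vehicle and 299, 359 and 314 CPM after dexmedetomidine. At the tunnel exit 4 of 6 members were below 0, and no member had separated groups. Rpl39, which lines the tunnel, had the highest log2 fold change of all members, with 105, 100 and 81.0 CPM against 91.3, 142 and 114 CPM (log2 fold change 0.28, SE 0.17, edgeR adjusted p = 0.381), with dexmedetomidine replicate 1 below vehicle replicates 1 and 2. Rpl26, at the tunnel exit, was at 0.13 and Rpl35, also at the exit, at -0.58, so genes of the same site lay on both sides of 0. Rpl36a, next to the exit site of transfer RNA, was at 0.22 (SE 0.13) and Rpl35a at 0.12 (SE 0.13), both with overlapping groups.

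In the 40S, the lowest log2 fold changes belonged to Rps15, Rps9 and Rps16. Rps15, whose tail lies near the decoding site, measured 253, 308 and 230.1 CPM after vehicle and 216, 151 and 130.5 CPM after dexmedetomidine, and each dexmedetomidine library was below each vehicle library (log2 fold change -0.67, SE 0.20, edgeR adjusted p = 0.117). Rps16, whose tail touches transfer RNA in the peptidyl site, had 153, 178 and 137 CPM and 127, 111 and 89.3 CPM (-0.52, SE 0.16). Rps23, part of the decoding centre itself, was at -0.45 (SE 0.15). Neither overlapped. Rps9, a protein of the body of the subunit, had the smallest p of the 40S, with 282, 345 and 264 CPM after vehicle and 241, 188 and 175 CPM after dexmedetomidine (log2 fold change -0.56, SE 0.16, edgeR adjusted p = 0.112). Rps10, which is ubiquitinated on stalled ribosomes, was at -0.43 (SE 0.15) with overlap, because dexmedetomidine replicate 1 (180.0 CPM) lay above vehicle replicate 3 (175).

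For the 40S genes that follow the groups overlapped. Rps6, the substrate of the S6 kinases, measured 223, 232 and 199 CPM after vehicle and 204, 249 and 234 CPM after dexmedetomidine, with overlap (log2 fold change 0.073, SE 0.13, edgeR adjusted p = 0.782). Rps27 had the highest log2 fold change of the 40S, with 199, 186 and 175 CPM against 191, 249 and 239.9 CPM, where only dexmedetomidine replicate 1 lay within the vehicle range (log2 fold change 0.28, SE 0.14, edgeR adjusted p = 0.266). Rps27a, which is made as a fusion with ubiquitin, was at 0.010, Rps12 at -0.0054, Rps7 at 0.045, Rps24 at 0.035 and Rps15a at 0.030, each with an SE between 0.12 and 0.14. At the mRNA entry side Rps2 and Rps3 were at -0.19 and -0.22, and at the exit side Rpsa, also described as a laminin receptor, Rps26 and Rps28 were at -0.11, -0.33 and -0.41, all 5 with overlapping groups. Rpsa held 554, 515 and 400.1 CPM and 456, 444 and 459 CPM, so vehicle replicate 3 was the lowest library of the 6. Of 12 genes mutated in Diamond-Blackfan anaemia, a failure of red cell production caused by ribosomal protein loss, 7 were below 0 (median -0.24, background 49.7%) and 1, Rpl11, had separated groups (background 12%). Rps19, the gene mutated most often in that disease, had 147, 169 and 126 CPM after vehicle and 131, 128 and 118 CPM after dexmedetomidine (-0.23, SE 0.14, with overlap).

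Some members are alternative forms of another member. Rpl3l is made in heart and skeletal muscle, where it takes the place of Rpl3 in part of the ribosomes. Rpl3l measured 193, 237 and 194 CPM after vehicle and 177, 136 and 156 CPM after dexmedetomidine, and the groups did not overlap (log2 fold change -0.41, SE 0.14, edgeR adjusted p = 0.145). Rpl3 measured 170.1, 159.7 and 134 CPM and 148, 159 and 145 CPM, with overlap (log2 fold change -0.036, SE 0.13, edgeR adjusted p = 0.905). The ratio of Rpl3l to Rpl3 in counts per length was 0.967, 1.27 and 1.24 in vehicle replicates 1 to 3 and 1.02, 0.728 and 0.919 in dexmedetomidine replicates 1 to 3. The 2 genes were thus present at like levels per length, and dexmedetomidine replicate 1 lay above vehicle replicate 1. The difference of the mean log2 ratio was -0.38 (means 1.16 ± 0.166 and 0.889 ± 0.149, SD, n = 3), with an exact two-sided permutation p of 0.2, where 0.1 is the smallest this design allows.

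**Figure D3:**
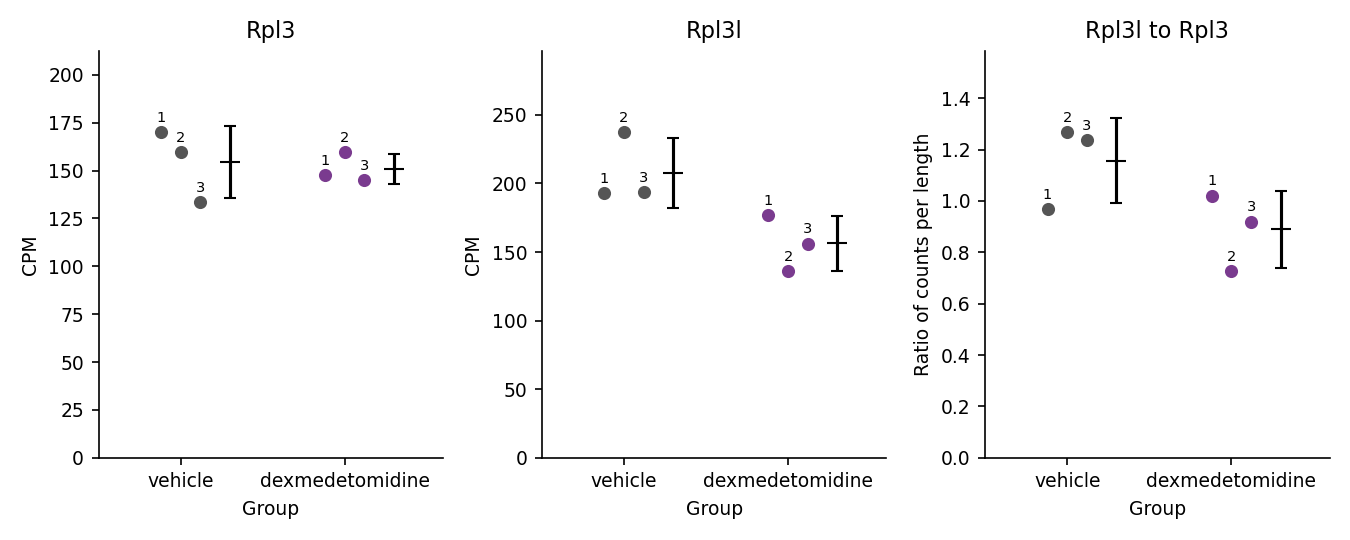
CPM of Rpl3 (left) and of its striated muscle form Rpl3l (middle), and the ratio of Rpl3l to Rpl3 in counts per length (right), by group, with points for single libraries labelled by replicate number and bars for the mean ± SD (n = 3). Rpl3 overlaps between groups, Rpl3l does not, and the ratio overlaps through vehicle replicate 1 (0.967) and dexmedetomidine replicate 1 (1.02).

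Ratios of other pairs are given without a test. The share of separated groups among ratios of other genes was not computed, so the separations below have no background. Rps27l, a p53-responsive form of Rps27, was at -0.011 against 0.28 for Rps27, and their ratio per length was 0.0959, 0.122 and 0.0974 after vehicle and 0.0917, 0.0791 and 0.0880 after dexmedetomidine, without overlap. Rps4l measured 23.0, 22.6 and 23.9 CPM and 22.4, 15.8 and 15.8 CPM (-0.36, SE 0.16), where dexmedetomidine replicate 1 stood just under the vehicle values, while Rps4x, the X-linked main form, was at -0.025 (SE 0.14). Rpl6l was close to the limit of the filter, with 1.13, 1.53 and 0.830 CPM and 0.642, 1.18 and 0.719 CPM (-0.46, SE 0.43). Rpl22l1, a relative of Rpl22 outside the symbol rule, had a ratio to Rpl22 per length of 1.07, 0.941 and 0.934 after vehicle and 0.815, 0.638 and 0.635 after dexmedetomidine, again without overlap. The ratio of Rpl36al to Rpl36a was 1.16, 0.902 and 0.906 after vehicle and 0.859, 0.746 and 0.664 after dexmedetomidine, without overlap as well. For the other 3 pairs the groups overlapped. The ratio of Rps4l to Rps4x was 0.109 to 0.149 after vehicle and 0.0780 to 0.129 after dexmedetomidine, that of Rpl6l to Rpl6 0.00824 to 0.0119 and 0.00596 to 0.0107, and that of Rpl7l1 to Rpl7 0.115 to 0.132 and 0.115 to 0.150.

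The members' differences followed the GC content of their transcripts, as did those of all genes. Across 77 members with a principal transcript, log2 fold change and GC content had a Spearman rho of -0.59 (60S -0.72 over 46 genes, 40S -0.32 over 31), and across 13362 tested genes the rho was -0.66. These are correlations across genes of the same 6 libraries, which are not independent replicates. In the tercile of members with the lowest GC content (41.3% to 50%), 17 of 26 were lower with a median log2 fold change of -0.032, while 5220 tested genes in that GC range had a median of 0.19 and 24.6% were lower. In the middle tercile (50% to 53.8%), 20 of 25 were lower with a median of -0.24, against -0.061 and 60.8% for 2788 genes. In the tercile with the highest GC content (54.0% to 60.8%), all 26 were lower with a median of -0.42, against -0.23 and 81.9% for 3789 genes. The members' median was below that of other genes of like GC content in each tercile, and it was lower with each step in GC.

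**Figure D4:**
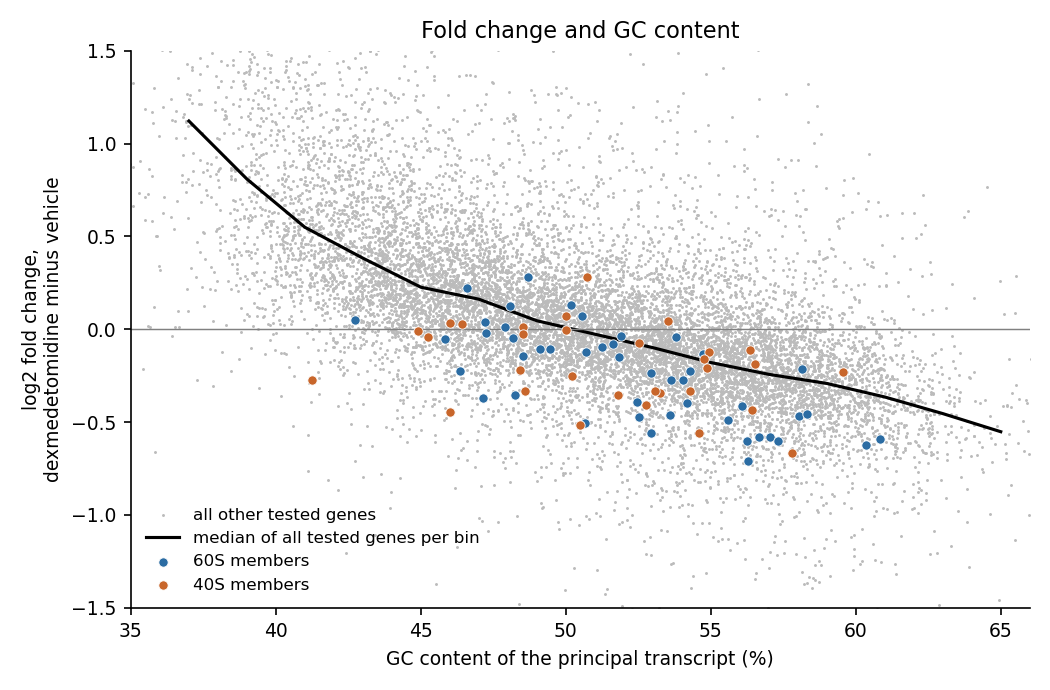
Log2 fold change (dexmedetomidine minus vehicle, vertical axis) against the GC content of the principal transcript in percent (horizontal axis) for tested genes, with 60S members in blue, 40S members in orange, other genes in grey and a black line for the median of all tested genes in bins of GC content; a few genes outside the axes are not drawn. Grey and coloured points both slope downward, and all 26 members of the highest GC tercile lie below 0.

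When each library's trend over GC content and gene length was removed, the members' median moved closer to that of all genes. The median of members was -0.057 and that of all genes 0.039, with 47 of 79 members lower (background 44.2%). Unadjusted p under 0.05 was then seen for 15 of 79 members lower (background 5.52%) and 8 higher (6.99%), where it had been 28 and 0. The share of members lower at that p thus stayed above the share of all genes. Among members this correction left an opposite trend with the GC content of the longest transcript (Spearman rho 0.40, and 0.61 for the 40S). Over all genes that rho was 0.049, and with GC content of the principal transcript it was 0.0043 among members. Corrected values of single members are uncertain for this reason. With GC content and length taken from principal transcripts, a step added after the data were seen, the median was -0.028 against 0.037, 43 members were lower (44.3%), and 8 were lower and 8 higher at an unadjusted p under 0.05 (4.93% and 7.25%). The 60S then stood at -0.035 and the 40S at -0.0045. Rpl41 was at -0.39 and -0.29 under the 2 corrections, Rps15 at -0.081 and -0.21, Rpl38 at -0.10 and -0.18, and Rplp1 at -0.14 and -0.15, each still below 0 but smaller. Rps9 went to -0.41 and -0.24, and Rpl3l to -0.057 and -0.10. On the other side Rps27 went to 0.68 and 0.50, and Rpl39 to 0.40 and 0.40. The source of the trend was not tested.

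**Figure D5:**
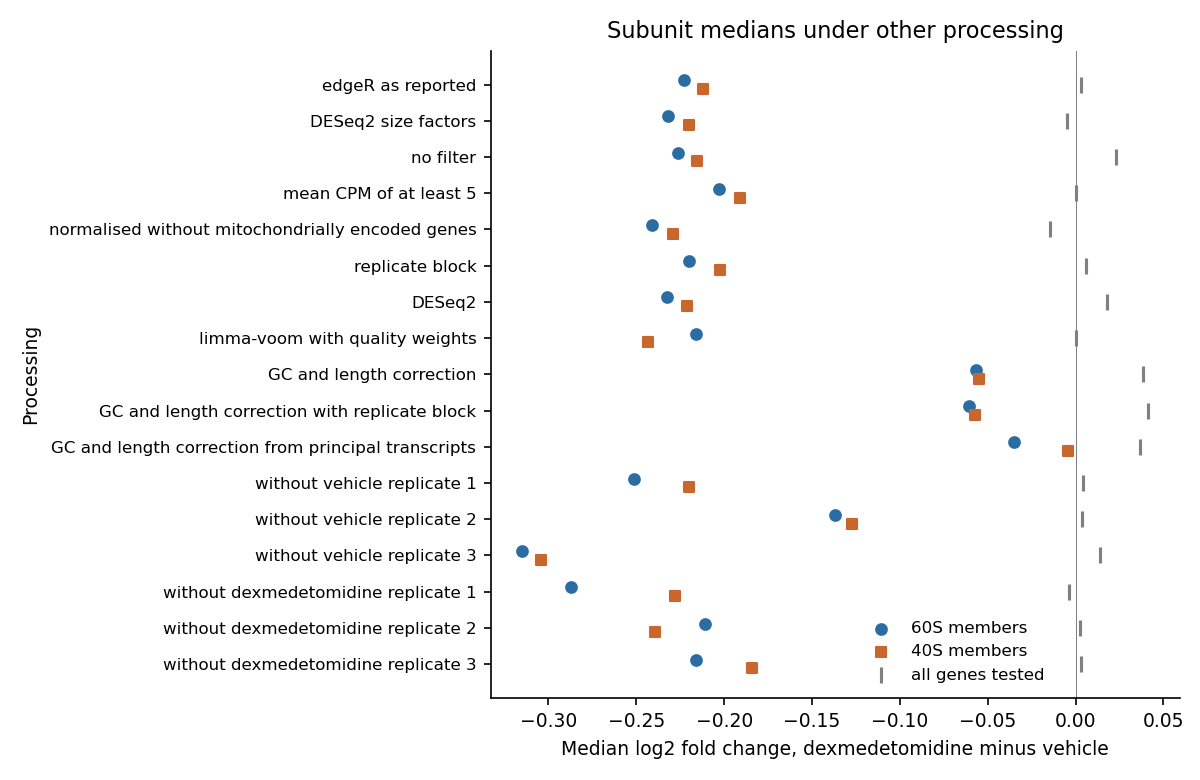
Median log2 fold change (dexmedetomidine minus vehicle, horizontal axis) of 60S members (blue circles), 40S members (orange squares) and all tested genes (grey ticks) under each way of processing (vertical axis). Both subunit medians lie together, between -0.31 and -0.13 without the joint correction for GC content and length and near 0 (-0.061 to -0.0045) with it.

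Genes that work with the ribosomal proteins did not share 1 direction, and none had an adjusted p under 0.05 in edgeR. Of 6 ribosomal proteins and close relatives outside the symbol rule, all 6 were below 0 (median -0.22). Fau, the source of a 40S protein, was at -0.27 (SE 0.12) without overlap, and the 40S scaffold Rack1 was at -0.11 with overlap. Of 20 other messenger RNAs with a TOP motif, a list that shares genes such as Fau and Rack1 with the former, 12 were below 0 (median -0.13). Among them Eef2, which moves the ribosome along the message, was at -0.40 (SE 0.12) and Eef1a1, which brings aminoacyl transfer RNA, at 0.037 (SE 0.13). The histone chaperone gene Nap1l1 was at 0.42 (SE 0.13). The GC and length correction gave -0.20 for Nap1l1, -0.087 for Eef2, 0.031 for Eef1a1, 0.29 for Fau and -0.081 for Rack1.

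Assembly factors lay on both sides of 0, with 11 of 20 small subunit factors and 10 of 22 large subunit factors below 0. Without overlap, 4 of the small subunit factors were lower and 3 higher. Of the large subunit factors 3 were lower and 6 higher without overlap (background 12% lower and 15.6% higher). Rrp12 (-0.56), Imp3 (-0.46) and Rrs1 (-0.49), all of which act in ribosome maturation, were without overlap on the lower side, and Wdr43 (0.38) and Rpf1 (0.42) on the higher side, while Eif6, which keeps the subunits apart until maturation is complete, was at -0.49 with overlap. Of 14 snoRNP and nucleolar genes 9 were below 0, but 4 were higher without overlap (background 15.6%) and 0 lower without overlap (12%). The 3 with the smallest p, Nop58 (0.73), Ncl (0.56) and Npm1 (0.35), were among those higher. Of 16 RNA polymerase I genes 11 were below 0, among them the shared polymerase subunits Polr2l (-0.93) and Polr2f (-0.51), with the initiation factor subunit Taf1d at 0.995. Initiation factors were split, 14 of 27 below 0, with Eif5b, which joins the subunits, at 1.22, Eif3j1 at 0.78 and Eif2s2 at 0.64. With the GC and length correction Taf1d went to 0.49, Eif5b to 0.91, Eif3j1 to 0.37 and Eif2s2 to -0.15. Nop58 went to 0.25, Ncl to 0.14, Npm1 to -0.026, Wdr43 to 0.14 and Rpf1 to 0.060. On the lower side Rrp12 went to -0.29, Imp3 to -0.086, Rrs1 to -0.25, Eif6 to -0.15, Polr2l to -0.74 and Polr2f to -0.21.

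Among 19 regulators of ribosomal protein messages, 9 were below 0. Rps6kb1, the S6 kinase that phosphorylates the Rps6 protein, measured 14.0, 12.3 and 20.5 CPM after vehicle and 33.7, 26.5 and 36.4 CPM after dexmedetomidine (log2 fold change 1.04, SE 0.21). Eif4ebp1, a repressor of cap-dependent initiation under mTOR, measured 73.8, 96.9 and 76.9 CPM and 54.8, 55.3 and 47.2 CPM (-0.65, SE 0.14). Groups did not overlap for either gene, and both had an edgeR adjusted p of 0.101. With the GC and length correction Rps6kb1 went to 0.32 and Eif4ebp1 to -0.52. Larp4, which stabilises ribosomal protein messages through their tails, was at 1.20 (SE 0.30, 0.50 with the correction), and Larp1 and Mtor were at -0.096 and -0.20. Myc, a transcription factor that drives ribosome production, had 56.2, 98.8 and 34.4 CPM after vehicle and 37.2, 35.3 and 34.0 CPM after dexmedetomidine. Its highest value was in vehicle replicate 2, the library in which 57 members were also highest. Myc was singled out after its values were seen, and its part in the members' values was not tested.

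Ribosomal proteins of the mitochondrion, which are encoded by other nuclear genes, had lower values in 57 of 76 (background 49.7%), with a median log2 fold change of -0.13 and 12 without overlap on the lower side (background 12%) and 5 on the higher side (15.6%). Their median was -0.092 with the GC and length correction. Transcripts encoded by the mitochondrial genome, whose messages these ribosomes translate, were higher for 16 of 18 (median 0.79, background 50.3%), 14 of them without overlap (background 15.6%). Their median was 0.16 with the GC and length correction and -0.019 with that from principal transcripts, where 10 of 18 were lower. The median for cytoplasmic members was -0.22, and the difference between these sets was not tested.

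Summed levels of several cell type markers also differed between the groups. The 10 cardiomyocyte markers were all detected, 7 of them below 0, and their summed level was 54508 to 63391 CPM after vehicle and 50761 to 52636 CPM after dexmedetomidine, without overlap and highest in vehicle replicate 2. Fibroblast markers (5 of 7 higher) summed to 903 to 1014 CPM and 1107 to 1329 CPM, and smooth muscle and pericyte markers (2 of 7 higher) to 977 to 1097 CPM and 1290.2 to 1463 CPM, both without overlap. The smooth muscle and pericyte sum was mostly Rgs5, a pericyte gene with 570 to 718 CPM after vehicle and 905 to 1163 CPM after dexmedetomidine. As a mean of log2 CPM over the markers, which weights each gene alike, the smooth muscle and pericyte list ran from 5.88 to 6.11 and from 5.73 to 6.07, and the cardiomyocyte list from 11.34 to 11.59 and from 11.20 to 11.36, both with overlap. The fibroblast list ran from 6.12 to 6.30 and from 6.43 to 6.52 on that scale, without overlap. Lymphocyte markers (5 of 7 tested, 4 higher) summed to 7.39 to 13.6 CPM and 14.1 to 23.0 CPM, also without overlap. In that sum Ptprc held 242 to 812 counts per library, and every other marker on the list held only 1 to 60. Neutrophil markers (6 of 6 higher) summed to 62.6 to 119 CPM and 46.8 to 187 CPM, with overlap, as for macrophage, endothelial and red cell markers. No marker on these lists was at 0 in all libraries, and the part of these cell types in the ribosomal protein values was not tested.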

How the data were processed

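RNA was sequenced from 6 samples of mouse heart apex, 3 per group, with groups taken from the labels. Per the labels' protocols, 1 µg of RNA per sample went through poly-T selection and an NEBNext Ultra library kit. The authors deposited raw counts per gene with a gene length in bases; Trim Galore, HTSeq and the build mm9 are named per the submitters' processing notes. For the aligner, annotation, strand setting and definition of length, the sources used here give nothing. Reads shared by gene copies or by overlapping and antisense genes can therefore not be assigned with certainty. Summary rows naming no gene were left out (not unique 28.05% to 39.5%, no feature 2.33% to 3.63%, ambiguous 1.83% to 2.37% of all reads).

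Of 37620 identifiers, 32897 matched a symbol in GENCODE M21 (GRCm38), used for symbols and GC content only; promoter windows are from RefSeq. All genes were tested once with edgeR 4.0.16 in R 4.3.3 (TMM, filterByExpr, robust quasi-likelihood F test, Benjamini-Hochberg adjustment over 14738 genes, threshold 0.05); the common coefficient of biological variation was 22.8%. CPM were computed from the counts with TMM-scaled library sizes, and log2 CPM with a prior count of 2. Alternatives were DESeq2 1.42.0 and its size factors, limma-voom 3.58.1 with quality weights, a mean CPM of at least 5, no filter, normalisation without mitochondrially encoded genes, a replicate block, each library left out, and removal of each library's trend over GC content of the longest transcript and deposited length (natural splines, 5 degrees of freedom). The same correction from principal transcripts was added after the data were seen. The fits were tested on simulated counts.

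Named members were up to 6 with the smallest p per direction and subunit, 14 named whatever their values, and the 4 highest and 4 lowest by level per length; other lists gave up to 3 genes by p. Members, lists and this rule were chosen with earlier results of these data known. Genes named beside the rule were Rpl12, Rpl28, Larp1, Mtor, Myc, Eef1a1 and Rack1. A few genes counted in the lists are not reported by name here.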

Additional observations from a re-analysis of the deposited data

How the results depend on the processing

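The members' median log2 fold change stayed below 0 under every alternative run. It was -0.22 as reported, -0.057 with the GC and length correction, -0.061 with that correction and a replicate block, -0.028 with the correction from principal transcripts, and -0.31 to -0.13 with 1 library left out. The 60S minus 40S difference of medians was -0.011 as reported, 0.027 in limma-voom, and -0.059 to 0.028 with 1 library left out. The difference in the members' share of counts was -0.37 percentage points, -0.19 without mitochondrially encoded genes in the total, and -0.47 to -0.29 with 1 library left out. The log2 difference of the Rpl3l to Rpl3 ratio was -0.51 to -0.25 with 1 library left out. The cause of these shifts was not tested.

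Counts of calls at an adjusted p under 0.05 depended on the tool. Over all genes edgeR gave 0, and there were 406 without the filter on low counts, 636 with a replicate block, 76 with the GC and length correction and the block, 1247 in DESeq2, 2063 in limma-voom, and 0 to 1251 with 1 library left out. The highest of these was without vehicle replicate 3, with 7 without dexmedetomidine replicate 1 and 5 without dexmedetomidine replicate 2. Members called, all of them lower, were 4 of 80 without the filter (Rpl13, Rpl38, Rplp1, Rps9) and 2 of 79 with the replicate block (Rpl41, Rplp1). Over all genes, 114 of 21606 and 67 of 14738 were called lower there. DESeq2 called 13 members (background lower 1.77% of 21606 genes) and limma-voom 27 (5.2% of 14738). With 1 library left out 0 to 8 were called, the 8 without vehicle replicate 3 (2.19%). Deviations of same-numbered libraries from their group means had correlations of -0.055, 0.036 and 0.15, and those of unlike number ran from -0.19 to 0.15. With 3 libraries per group these values cannot show whether the numbers pair the samples, and the labels state no pairing.

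Of 703 comparisons of 44 named members with an alternative, 634 kept their direction. With the GC and length correction the exceptions were Rps15a -0.18, Rps27a -0.22, Rps24 -0.17, Rps4x 0.079, Rpsa 0.041, Rps10 0.023, Rpl5 -0.32, Rpl3 0.19, Rpl35a -0.16, Rps4l 0.11, Rplp0 0.0012, Rpl8 0.0082, Rpl4 0.059, Rpl12 0.037 and Rps2 0.149. With that correction and the replicate block they were Rps15a -0.16, Rps27a -0.22, Rps24 -0.17, Rps4x 0.081, Rpsa 0.049, Rps10 0.029, Rpl5 -0.31, Rpl3 0.19, Rpl35a -0.14, Rps4l 0.12, Rplp0 0.0043, Rpl8 0.0092, Rpl4 0.060, Rpl12 0.046 and Rps2 0.150. With the correction from principal transcripts they were Rps24 -0.11, Rps4x 0.041, Rpsa 0.19, Rps19 0.29, Rpl5 -0.39, Rpl3 0.12, Rps12 0.18, Rps4l 0.071, Rpl12 0.077 and Rps2 0.189. A mean CPM of at least 5 gave Rps27l 0.0096 and Rps12 0.014, normalisation without mitochondrially encoded genes gave Rps27a -0.0064, and limma-voom gave Rps27a -0.011, Rps27l 0.039 and Rps7 -0.035. With 1 library left out the log2 fold changes that crossed 0 ran for Rps4x from -0.14 to 0.035, Rpl3 from -0.13 to 0.035, Rps12 from -0.086 to 0.039, Rps27l from -0.10 to 0.10, Rpl10 from -0.017 to 0.16, Rps15a from -0.085 to 0.10, Rps27a from -0.078 to 0.074, Rps24 from -0.050 to 0.12, Rpl5 from -0.040 to 0.099, Rpl4 from -0.12 to 0.0045, Rpl12 from -0.21 to 0.0054 and Rps7 from -0.059 to 0.15. Depth was high for most members, and 3 libraries per group set the precision of their values.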
